A study of Canis lupus familiaris with 31 samples.

Results

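The transcripts described here encode proteins that bend and join the membranes of the endoplasmic reticulum (ER). They were the 4 reticulons RTN4, RTN3, RTN2 and RTN1, the curvature protein REEP5, and the 3 atlastins ATL1, ATL2 and ATL3. Their rows were found by the gene symbol that follows the Ensembl identifier in the deposited table, and all 8 were present among its 32704 rows. Whole blood RNA was sequenced from 31 fasted Miniature Schnauzers, a breed prone to high triglycerides (HTG), with 1 library per dog. The 13 HTG cases (8 male, 5 female) and 18 controls (10 male, 8 female) were separated by fasting serum triglyceride concentration, and no treatment was part of the design. They were older client-owned dogs with naturally occurring HTG or normal triglycerides, not on drugs known to change lipids, and their diet and exercise were not standardized.

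Reticulons and REEP proteins carry hairpins that insert into one face of the membrane and hold it in tubules, and atlastins are GTPases that fuse tubules into a network. RTN4 is also known as Nogo, an inhibitor of axon growth, and its form Nogo-B is widespread outside the nervous system. RTN3 takes part in selective autophagy of ER tubules, and both RTN3 and RTN4 bind the β-secretase BACE1. In blood, platelets lack a nucleus and hold RNA and membrane systems inherited from the megakaryocyte, while neutrophils have comparatively little ER.

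Summed over the rows of the deposited table, counts per dog ranged from 14524659 to 41533599. These sums are not the assigned reads of the study's alignment table, from which they differ. By these sums control 03 had the lowest total and a library scaling factor of 0.527, the lowest of all dogs, with case 01 next at 0.752. The 364 rows of small non-coding RNA above the filter divided the dogs at a gap between 1.41 and 1.68 (mean log2 CPM) into 21 dogs (8 cases, 13 controls) and 10 dogs (5 cases, 5 controls). The libraries of a pilot set were prepared earlier than the others, but the labels do not name its dogs, and its numbers of cases and controls are those of the high side of this division. Whether the 10 dogs are that set was not tested. Levels are in CPM, a gene's count relative to the library total after scaling by the trimmed mean of M values (TMM). Fold changes are HTG cases over controls on the log2 scale, and P values measure the spread between these dogs. In whole blood, fewer cells of a type and less RNA per cell cannot be told apart.

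Of the 8 genes, 7 had enough counts to be tested, and RTN1 did not. RTN4 and RTN3 had higher means in HTG cases, by 1.14-fold and 1.18-fold, and for the other 5 tested genes the 95% interval of the difference included 0. None of the 7 passed an adjusted P of 0.05 in edgeR's quasi-likelihood test with Benjamini-Hochberg adjustment, against 5 of 13918 genes (0.0359%) in the whole table. An unadjusted P under 0.05 was found for 2 of the 7, RTN4 and RTN3, against 9.81% of all genes. Both were higher in HTG cases, a direction and threshold that 5.04% of all genes met. With DESeq2, RTN4 alone among the 7 passed the adjusted threshold, which 0.604% of all genes did. RTN4 is one of the genes that the study itself selected on these dogs, so its difference is not independent evidence. The study's fit was DESeq2 with a batch covariate, which could not be fitted here. The median log2 fold change of the 7 genes was -0.06, beside -0.02 over all genes tested.

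**Figure D1:**
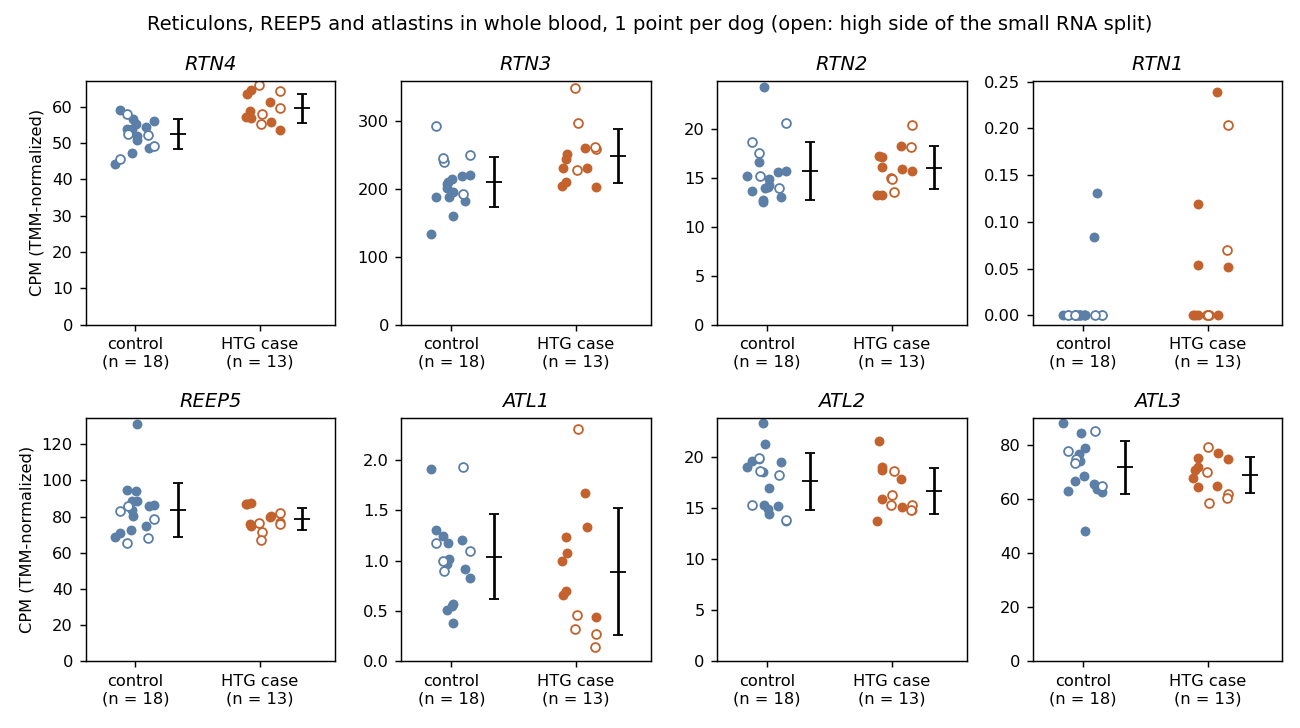
CPM (TMM-normalized, linear axes) of the 8 genes in each dog, with controls in blue and HTG cases in orange. Open points are the 10 dogs on the high side of the small RNA division, and black bars are the mean ± SD (not drawn for RTN1, which was at 0 in 16 of 18 controls). Case and control points overlap for every gene, and RTN4 has the lowest coefficient of variation of the 7 tested genes (9.73%).

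RTN4 (ENSCAFG00000002771) was measured with 349 to 2438 counts per dog. Its level in HTG cases was 53.7 CPM at the lowest, 58.9 at the median and 66.03 at the highest. In controls the lowest was 44.3, the median 53.0 and the highest 59.2 CPM. The groups overlapped, but 13 of 13 cases lay above the control median, 6 cases lay above the highest control and 10 controls lay below the lowest case. The means were 59.6 ± 3.97 CPM (SD, n = 13) and 52.4 ± 4.14 CPM (SD, n = 18). The log2 fold change was 0.19 (SE 0.05, 95% interval 0.09 to 0.28), with an unadjusted P of 0.000273 and an adjusted P of 0.1001 in edgeR's quasi-likelihood test. The adjusted P was 0.0183 with DESeq2's Wald test, at the same fold change.

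The RTN4 difference was small but its measurement was tight. The coefficient of variation over all dogs was 9.73% and the highest dog exceeded the lowest by 1.49-fold, so RTN4 had a smaller standard error than 99.6% of the genes tested. RTN4 ranked at position 38 of all genes by P value. The difference was 0.21 (SE 0.07) in females and 0.16 (SE 0.06) in males on the log2 scale, and the interaction with sex had an unadjusted P of 0.617 (edgeR). It was 0.16 (SE 0.06) in the 21 dogs of the low side of the small RNA division and 0.24 (SE 0.08) in the 10 dogs of the high side, and that interaction had an unadjusted P of 0.456 (edgeR). The RTN4 difference had the same direction in both sexes and on both sides of the division.

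RTN3 (ENSCAFG00000015064) was measured with 2234 to 9539 counts per dog. In HTG cases the lowest level was 203 CPM, the median 244 and the highest 348. In controls the lowest was 134 CPM, the median 209 and the highest 292. The groups overlapped more widely than the RTN4 groups did, with 11 of 13 cases above the control median and 2 cases above the highest control. The means were 249 ± 40.0 CPM (SD, n = 13) in cases and 210.3 ± 36.3 CPM (SD, n = 18) in controls. The log2 fold change was 0.24 (SE 0.09, 95% interval 0.06 to 0.42), with an unadjusted P of 0.00962 and an adjusted P of 0.328 in edgeR's quasi-likelihood test. Case 05 was the highest and case 12 the lowest of the cases for both RTN3 and RTN4, and control 10 was the lowest control for both.

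RTN2 (ENSCAFG00000004439), a reticulon best known from muscle and from a form of hereditary spastic paraplegia, was measured with 143 to 995 counts. Cases had a lowest level of 13.2 CPM, a median of 15.9 and a highest of 20.5. Controls had a lowest of 12.5 CPM, a median of 15.1 and a highest of 24.3. The case values lay wholly within the range of the controls, and the log2 fold change was 0.03 (SE 0.09, 95% interval -0.15 to 0.21, adjusted P 0.941 in edgeR's quasi-likelihood test). It turned to -0.048 with the platelet score as a covariate, to -0.074 on the high side of the small RNA division alone and to -0.0061 with a replicate block. RTN1 (ENSCAFG00000015578), a reticulon of neurons and neuroendocrine cells, had 0 to 4 counts per dog. It was at 0 in 7 of 13 cases and 16 of 18 controls, with 14 counts in all cases together and 6 in all controls. At this depth RTN1 was at or near the limit of 3 counts that a count of 0 allows, and no difference was tested.

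REEP5 (ENSCAFG00000007330), which stabilizes curved ER tubules together with reticulons, was measured with 634 to 3748 counts. HTG cases had a lowest level of 67.2 CPM, a median of 77.2 and a highest of 87.4. Controls had a lowest of 65.6 CPM, a median of 83.4 and a highest of 131. Control 09 alone reached 131 CPM and the next control was at 94.4, while 12 of 18 controls lay above the case median. The means were 78.6 ± 6.17 CPM (SD, n = 13) and 83.5 ± 14.9 CPM (SD, n = 18). The log2 fold change was -0.09 (SE 0.07, 95% interval -0.24 to 0.06), with an adjusted P of 0.742 in edgeR's quasi-likelihood test. Without control 09, a choice made after seeing the data, it was -0.04 (unadjusted P 0.532, edgeR).

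The atlastins had means that were lower in HTG cases, and none passed the test. These directions did not hold throughout, since with the neutrophil score as a covariate all 3 turned (ATL1 0.12, ATL2 0.0076 and ATL3 0.011), as did ATL1 (0.052) and ATL3 (0.012) on the low side of the small RNA division alone. ATL3 (ENSCAFG00000015073), an atlastin of non-neuronal cells and a receptor for ER autophagy, ranged from 58.4 to 79.1 CPM in cases (median 70.0) and from 48.1 to 87.99 CPM in controls (median 73.7). Its log2 fold change was -0.06 (SE 0.07, 95% interval -0.19 to 0.08), with an adjusted P of 0.835 in edgeR's quasi-likelihood test. The lowest ATL3 value of all dogs was that of control 09, the dog with the highest REEP5. ATL2 (ENSCAFG00000006181), the other atlastin found broadly outside neurons, ranged from 13.7 to 21.6 CPM in cases (median 15.9) and from 13.7 to 23.3 CPM in controls (median 18.3). Its log2 fold change was -0.08 (SE 0.08, 95% interval -0.24 to 0.08), with an adjusted P of 0.788 in edgeR's quasi-likelihood test. The case and control ranges of ATL2 coincided almost entirely.

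ATL1 (ENSCAFG00000014460), the neuronal atlastin that is altered in a common early-onset spastic paraplegia, had only 2 to 54 counts per dog. Cases ranged from 0.139 to 2.31 CPM (median 0.695) and controls from 0.377 to 1.94 CPM (median 1.01). The log2 fold change was -0.22 (SE 0.29, 95% interval -0.81 to 0.37), with an adjusted P of 0.855 in edgeR's quasi-likelihood test. With limma-voom it was -0.44 (unadjusted P 0.137). The ATL1 interval was the widest of the 7 genes, and a difference of the size seen for RTN4 lay within it. Such a difference also lay within the interval of RTN2 (-0.15 to 0.21). In the opposite direction, a difference of that size lay within the intervals of REEP5, ATL2 and ATL3. The coefficient of variation of ATL1 over all dogs was 52.6%, and how much of that was counting error was not tested. In the RefSeq annotation of another assembly (UU_Cfam_GSD_1.0) ATL1 overlaps MAP4K5 and ATL3 overlaps LOC102155220, while RTN3 and ATL3 are neighbours. The strand setting of the counting was not given in the sources used here, so reads shared by overlapping genes could not be told apart.

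None of the 7 genes had an unadjusted P under 0.05 for an interaction with sex, which 3.93% of all genes had. None had one for an interaction with the small RNA division either, which 4.35% of all genes had. For RTN3 the log2 fold change was 0.22 (SE 0.09) on the low side and 0.19 (SE 0.13) on the high side of the division. The widest gap was that of ATL1, with 0.05 (SE 0.35) on the low side and -0.82 (SE 0.52) on the high side, and its interaction had an unadjusted P of 0.173 (edgeR).

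**Figure D2:**
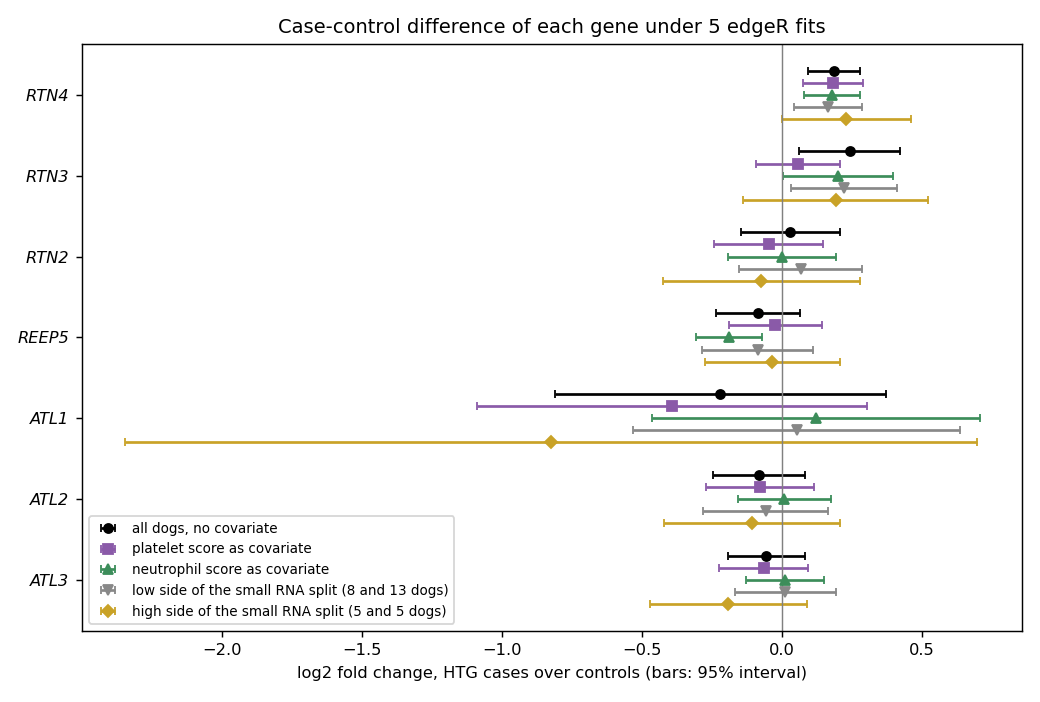
Log2 fold change of HTG cases over controls (horizontal axis) with its 95% interval for the 7 tested genes in 5 edgeR fits, shown by symbol and colour. RTN4 stays between 0.16 and 0.23 in all 5, RTN3 is at 0.06 with the platelet score as a covariate, and the intervals of ATL1 are the widest.

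Each gene was set beside markers of 8 blood and vessel cell types, of which the platelet score alone passed the test between groups. The score of a cell type averaged the log2 CPM of its markers after each marker's own mean was subtracted. The platelet score, from 10 genes such as PPBP and GP1BA, was 0.33 ± 0.47 (SD, n = 13) in HTG cases and -0.24 ± 0.57 (SD, n = 18) in controls. It ranged from -0.63 to 1.09 in cases and from -1.32 to 0.86 in controls (difference 0.57, permutation P = 0.00592, adjusted over 8 scores 0.0474). Within the small RNA division the difference was 0.36 on the high side (exact permutation P = 0.246, adjusted 0.419) and 0.59 on the low side (exact permutation P = 0.00917, adjusted 0.0734), so the call was lost on both. All 10 platelet markers had higher means in cases, 8 of them with an unadjusted P under 0.05 (5.04% of all genes were higher at that threshold) and none with an adjusted P of 0.05 or less in edgeR. The neutrophil score, from 7 genes, was higher in cases by 0.45 (permutation P = 0.0267, adjusted 0.107). Of these 7 genes 5 had higher means in cases, 2 of them with an unadjusted P under 0.05 (against the same 5.04%), and the score ranged from -0.35 to 0.999 in cases and from -1.04 to 1.37 in controls. The other 6 scores had adjusted P values of 0.270 or more. The endothelial marker EMCN was at or near 0 and CDH5 was under the filter, and the endothelial score held TEK, VWF and PECAM1 alone. Of these PECAM1 had a log2 fold change of 0.41 (unadjusted P 0.00198, edgeR), TEK -0.19 and VWF -0.12, and platelets and megakaryocytes also express PECAM1 and VWF.

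RTN3 followed the platelet markers from dog to dog. After both were centred on their group means, Pearson's r was 0.73 (permutation P = 4e-05, adjusted over 56 relations 0.00224) and Spearman's rho was 0.76 over 31 dogs (permutation P = 1e-05, the smallest that the resamples allow). An r of at least that size, in either direction, was found for 1.27% of the 13918 genes. Without the 2 dogs farthest from the median score r was 0.79. With groups and sides of the small RNA division centred together r was 0.60 (adjusted P 0.0140, permutation test). With the platelet score as a covariate the RTN3 log2 fold change was 0.06 (SE 0.07, unadjusted P 0.444, edgeR), beside 0.24 without it. RTN3 also correlated with the endothelial score (r = 0.63, permutation P = 0.0003, adjusted 0.0056), but the rank relation did not pass (rho = 0.43, adjusted permutation P 0.114), and r was 0.50 without the 2 farthest dogs. Of all genes 0.747% had an r as large with that score.

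For RTN4 no relation with a marker score passed the adjusted threshold. Its r with the platelet score was 0.02 (permutation P = 0.914, rho = 0.13), and its r with the other 7 scores lay between -0.29 and 0.26. With the platelet score as a covariate its log2 fold change was 0.18 (SE 0.05, unadjusted P 0.00160, edgeR), and with the neutrophil score it was 0.18 (SE 0.05, unadjusted P 0.00102, edgeR). The RTN4 difference was as large, within its error, with either score as a covariate, while the adjusted P values were 0.571 and 0.162 in edgeR's quasi-likelihood test. The difference between the RTN3 and RTN4 relations with the platelet score was not tested, nor was the part of the cell mixture in the RTN4 difference.

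**Figure D3:**
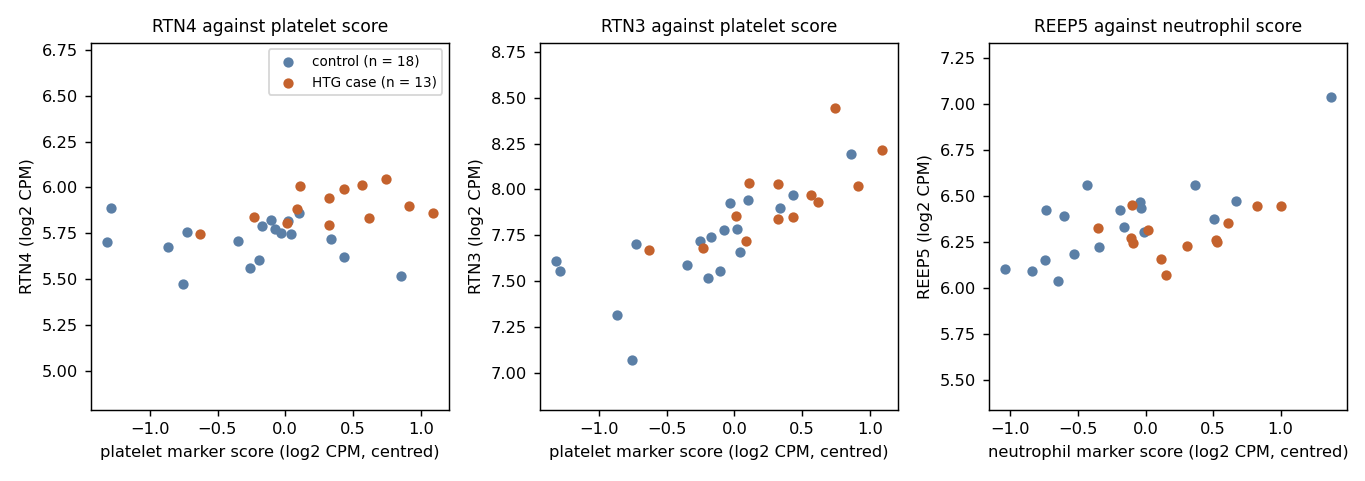
Log2 CPM of RTN4 and RTN3 against the platelet marker score, and of REEP5 against the neutrophil marker score, for 18 controls (blue) and 13 HTG cases (orange), 1 point per dog, with vertical axes of equal span. RTN3 rises with the platelet score (r = 0.73 within groups), r is 0.02 for RTN4, and control 09 is the single dog at the upper right for REEP5.

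REEP5 followed the neutrophil markers. Pearson's r was 0.71 (permutation P = 8e-05, adjusted 0.00224), Spearman's rho was 0.52 (permutation P = 0.00425, adjusted 0.114), and r was 0.53 without the 2 farthest dogs, so part of the relation rested on them. Of all genes 3.21% had an r as large with that score. With groups and sides of the division centred together r was 0.78 (adjusted permutation P 0.00056), rho was 0.69 (adjusted 0.00532), and r was 0.68 without the 2 farthest dogs. Under that centring REEP5 also passed with the T cell (r = -0.58), B cell (r = -0.64) and erythroid (r = 0.49) scores (adjusted permutation P 0.0189, 0.0140 and 0.0306). An r as large was found under that centring for 13.0% of all genes with the T cell score, 0.776% with the B cell score and 27.4% with the erythroid score. Control 09 had the highest neutrophil score of all dogs, 1.37, and the lowest platelet score, -1.32. With the neutrophil score as a covariate the REEP5 log2 fold change was -0.19 (SE 0.06, unadjusted P 0.00263, adjusted P 0.184, edgeR's quasi-likelihood test), beside -0.09 without it. With the platelet score as a covariate the REEP5 value was -0.02. The atlastins had the opposite sign, with r of -0.46 for ATL1, -0.46 for ATL2 and -0.43 for ATL3 against the neutrophil score, and none of the 3 passed the adjusted threshold (0.0547, 0.101 and 0.149, permutation test). With the sides of the division centred too, ATL1 passed (r = -0.46, adjusted permutation P 0.0222), at a size that 27.1% of all genes reached, and ATL2 and ATL3 did not. With that score as a covariate their log2 fold changes turned sign, as given above. Whether the cell mixture accounts for any of these differences was not tested.

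**Figure D4:**
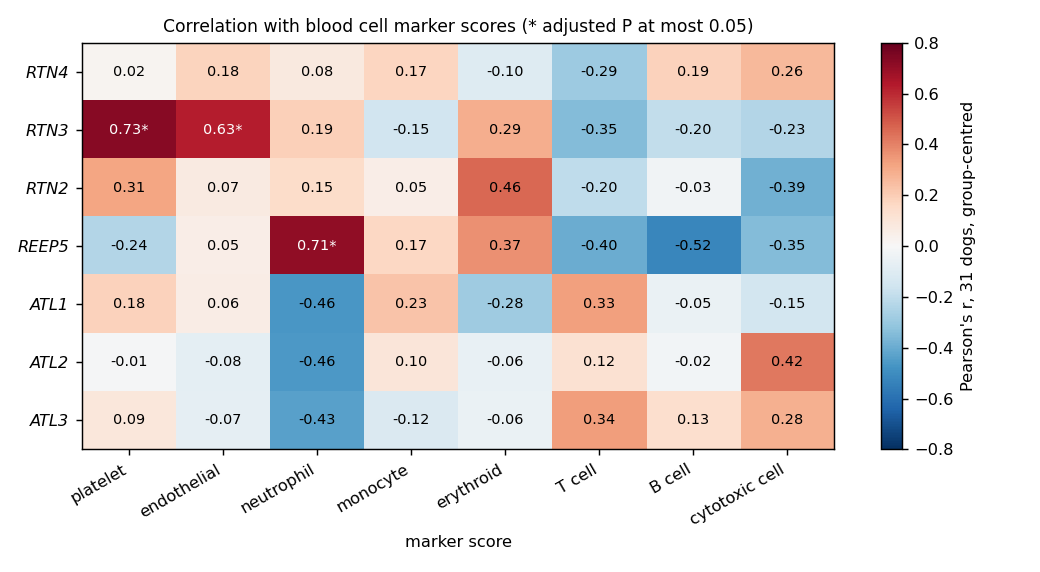
Pearson's r over 31 dogs between the log2 CPM of each tested gene (rows) and 8 blood cell marker scores (columns), both centred on group means, with red for positive and blue for negative values. Asterisks mark the 3 of 56 relations with an adjusted permutation P of 0.05 or less: RTN3 with the platelet and endothelial scores and REEP5 with the neutrophil score, at sizes of r reached by 1.27%, 0.747% and 3.21% of all genes.

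Levels were also compared from gene to gene over the dogs. Of the 21 pairs among the 7 genes none had an adjusted permutation P of 0.05 or less. The strongest was REEP5 with ATL3 (r = -0.52, permutation P = 0.0104, adjusted 0.218, rho = -0.24), and its r was -0.29 without the 2 farthest dogs. RTN4 and RTN3 had an r of 0.31 (permutation P = 0.0974, rho = 0.31), which was 0.02 without the 2 farthest dogs. With groups and sides of the small RNA division centred together it was 0.40 (permutation P = 0.0411, adjusted 0.257), and 0.26 without the 2 farthest dogs.

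Ratios within a dog do not depend on the library scaling. The log2 ratio of RTN4 to RTN3 was -2.05 ± 0.18 (SD, n = 13) in HTG cases and -1.99 ± 0.26 (SD, n = 18) in controls, a difference of -0.06 (permutation P = 0.487). That difference was -0.07 on the low side of the division (exact permutation P = 0.365), 0.05 on the high side (exact permutation P = 0.778) and -0.12 without case 01 and control 03 (permutation P = 0.125). The log2 ratio of RTN4 to REEP5 was -0.40 ± 0.14 (SD, n = 13) in cases and -0.66 ± 0.27 (SD, n = 18) in controls, a difference of 0.26 (two-sided permutation P = 0.00292). It ranged from -0.62 to -0.21 in cases and from -1.33 to -0.18 in controls, so the groups overlapped. Within the small RNA division the RTN4 to REEP5 difference was 0.23 on the low side (exact permutation P = 0.0230) and 0.26 on the high side (exact permutation P = 0.111). Without control 09 it was 0.22 over all other dogs (permutation P = 0.00416). The study had selected RTN4 on these dogs and the ratio carries that difference, so it is not independent evidence. The ratio P values were not adjusted, and ratios of RTN4 to further genes were not computed.

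The genes most like each reticulon were found by Pearson's r of group-centred log2 CPM over the 31 dogs, as a description of these libraries. For RTN3 they were TBXAS1 (r = 0.84), which makes thromboxane, NRGN (0.83), MPIG6B (0.83), a receptor of megakaryocytes and platelets, CMIP (0.83) and PRKG1 (0.80), a cGMP-dependent kinase. The 95th percentile of r over all genes was 0.50 for RTN3. For RTN4 they were FAM49A (r = 0.66), KCNJ3 (0.61), the mRNA export factor NXF1 (0.60), ZNF300 (0.59) and ENSCAFG00000035997 (0.57), against a 95th percentile of 0.30. For RTN2 they were MAP1LC3A (r = 0.67), an autophagosome protein, SNRK (0.66), ACYP2 (0.63), ENSCAFG00000033145 (0.61) and C9H9orf16 (0.61), against a 95th percentile of 0.43.

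Triglyceride concentration defined the groups, so its relation to each gene was computed within cases and within controls. None of the 14 relations had an adjusted permutation P of 0.05 or less. RTN4 had an r of 0.56 with log10 triglycerides in the 13 cases (permutation P = 0.0479, adjusted 0.144, rho = 0.59), and r was 0.43 without the 2 farthest dogs. In the 18 controls its r was -0.45 (permutation P = 0.0616, adjusted 0.144, rho = -0.37). ATL2 had the same pair of signs, 0.60 in cases (permutation P = 0.0317, adjusted 0.144, rho = 0.46) and -0.57 in controls (permutation P = 0.0151, adjusted 0.144, rho = -0.53). Without the 2 farthest dogs these were 0.36 and -0.57. In controls REEP5 and RTN2 had the opposite sign, with r of 0.48 for REEP5 (permutation P = 0.0378, adjusted 0.144, rho = 0.57) and 0.45 for RTN2 (permutation P = 0.0570, adjusted 0.144, rho = 0.51), which were 0.39 and 0.32 without the 2 farthest dogs. RTN3 had r of 0.06 in cases and 0.32 in controls.

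The other genes of ER shape and of reticulon partners were taken from 7 lists with 56 genes. Of these 42 could be tested, 6 were under the filter and 8 had no row of that symbol. None passed an adjusted P of 0.05 in edgeR, and 5 of the 42 had an unadjusted P under 0.05, 2 higher and 3 lower in HTG cases, a share near the 9.81% of all genes. The directions were even, with 20 genes higher and 22 lower and a median log2 fold change of -0.01.

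Among the ER tubule and junction partners REEP2, a relative of REEP5, had a mean of 10.4 ± 4.22 CPM (SD, n = 13) in cases and 7.47 ± 2.63 CPM (SD, n = 18) in controls. Its log2 fold change was 0.48 (SE 0.19, unadjusted P 0.0162, adjusted P 0.362, edgeR's quasi-likelihood test), and -0.07 with the platelet score as a covariate. RTN4IP1, a mitochondrial protein that binds RTN4, was at 3.79 ± 0.91 CPM (SD, n = 13) in cases and 4.82 ± 1.27 CPM (SD, n = 18) in controls, with a log2 fold change of -0.35 (SE 0.14, unadjusted P 0.0153, adjusted P 0.358, edgeR's quasi-likelihood test). SPTLC1, a subunit of serine palmitoyltransferase that reticulons can bind, was at -0.17 (SE 0.07, unadjusted P 0.0270, adjusted P 0.431, edgeR). The membrane tethers ESYT1 and ESYT2 had log2 fold changes of opposite sign, 0.15 and -0.14 (unadjusted P 0.0491 and 0.0362, edgeR). With the platelet score as a covariate RTN4IP1 was at -0.20, ESYT1 at 0.06 and ESYT2 at -0.08, and none of these 3 or SPTLC1 had an unadjusted P under 0.05.

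Of the receptors for Nogo, RTN4RL1, RTN4RL2, LINGO1 and NGFR were under the filter, and RTN4R and S1PR2 had no row of that symbol. NUS1, also called the Nogo-B receptor, had a log2 fold change of -0.08 and was named after its value was seen, and the co-receptor TNFRSF19 had 0.41 (unadjusted P 0.263, edgeR). The leading genes of the remaining lists were CKAP4 of ER sheets at 0.43 (unadjusted P 0.0563, edgeR), the ER autophagy receptor RETREG2 at 0.29 (unadjusted P 0.112, edgeR) and the chaperone HSP90B1 at -0.13 (unadjusted P 0.448, edgeR). HSP90B1 turned to 0.20 with the platelet score as a covariate and to 0.016 without control 09. CKAP4 was at 0.18 with age, 0.16 with the neutrophil score and 0.66 with the platelet score as a covariate (unadjusted P 0.356, 0.454 and 0.00875, edgeR), and RETREG2 was at 0.08 with the platelet score and 0.11 with the neutrophil score. On the low side of the small RNA division alone RETREG2 was at 0.45 (unadjusted P 0.0120, edgeR) and TNFRSF19 at 0.71 (unadjusted P 0.109, edgeR), and on the high side alone they were at -0.05 and -0.30.

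**Figure D5:**
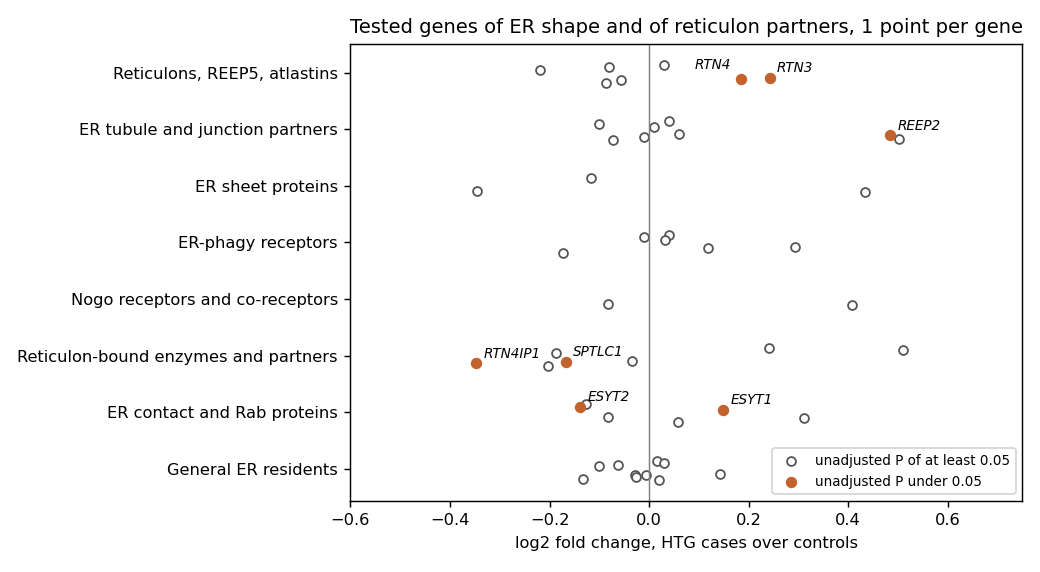
Log2 fold change of HTG cases over controls (horizontal axis) for each tested gene of the reticulons, REEP5 and atlastins and of 7 lists of ER genes (vertical axis), 1 point per gene with vertical jitter. Filled orange points had an unadjusted P under 0.05 in edgeR, 2 of the 7 genes of the first line and 5 of the other 42. Of all genes tested 9.81% had such a P.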

How the data were processed

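Per the study's methods, blood was collected into tubes that stabilize RNA, and stranded total RNA libraries were made after ribosomal RNA removal. The labels name the same library kit but give polyA RNA as the molecule and another extraction kit, which was not resolved here. Per the labels and methods, the authors trimmed reads with Trimmomatic, aligned them with HISAT2 and deposited raw counts per gene, a pair being counted when both mates mapped. The counting program, its strand setting and the annotation were not given in the sources used here. Of the 32704 rows 7120 were 0 in every dog.

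Rows were filtered with filterByExpr by group (13918 kept), scaled by TMM and tested with the quasi-likelihood test of edgeR 4.0.16 in R 4.3.3, all dogs and no covariate, with Benjamini-Hochberg adjustment over all genes tested. DESeq2 1.42.0 and limma 3.58.1 were alternatives. The study used DESeq2 with a batch covariate, whose dogs the labels do not name. Correlations and ratios used log2 CPM (prior count 2) and two-sided permutation tests with 100000 resamples (scipy 1.17.1). Triglycerides, age and body condition score came from the study's table of dogs. The scripts were tested on simulated data. The genes and lists were chosen with earlier results of these data known. Named genes were all 8 genes, up to 3 genes per list by P (under 0.05, or else the first), and the 5 genes most like each reticulon with a mean of at least 10 CPM. NUS1 and single marker genes were named outside this choice.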

Additional observations from a re-analysis of the deposited data

Results flagged for a closer look

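Each gene was examined for a single far dog in 49 groups of 4 to 10 dogs (by sex or side of the small RNA division), using Dixon's gap. One was found, and chance alone is expected to give about 1 in 20 groups. Among the 10 male controls, control 09 had a REEP5 level of 7.04 on the log2 CPM scale and the next dog was at 6.56, a gap of 0.476 of the range. The same dog had the highest neutrophil score and the lowest ATL3 value, and their part in the REEP5 value was not tested.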

How the results depend on the processing

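The fit was repeated in 19 alternatives. RTN4 kept its direction in all, with log2 fold changes of 0.16 to 0.23 and unadjusted P values of at most 0.0410, and RTN3 (0.06 to 0.28) had an unadjusted P under 0.05 in 17. The number of the 7 genes with an adjusted P of 0.05 or less was 1 with DESeq2 and 1 with DESeq2 and the small RNA division as a covariate (RTN4 both times, log2 fold changes 0.19 and 0.18), and 0 in the other fits. In the whole table such genes numbered 84 and 103 in those DESeq2 fits, 28 without case 01 and control 03, 3 with body condition score, 1 with at least 10 counts in every dog, and 0 with limma-voom, either marker score, the replicate block or either side of the division alone. Signs turned with the platelet score for RTN2 (-0.048), REEP2 (-0.066) and HSP90B1 (0.20), with the neutrophil score for ATL1 (0.12), ATL2 (0.0076) and ATL3 (0.011), and without control 09 (chosen after seeing the data) for HSP90B1 (0.016). They also turned on the high side alone for RTN2 (-0.074), RETREG2 (-0.053) and TNFRSF19 (-0.30), and on the low side alone for ATL1 (0.052) and ATL3 (0.012). None of these had an unadjusted P under 0.05, and the cause was not tested. RETREG2 (0.29) had an unadjusted P under 0.05 in 3 alternatives, the lowest 0.00333 without case 01 and control 03 (0.36). With groups and sides centred together 7 marker relations passed in place of 3 (adding REEP5 with T cell, B cell and erythroid scores and ATL1 with the neutrophil score). The RTN4 to RTN3 ratio difference, -0.06, turned to 0.05 on the high side.

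Cases and controls share numbers in the labels. In the study's table of dogs the numbers follow falling triglycerides within each group, so the replicate block is a block on that order. The labels name no pairing of dogs. The 13 same-numbered pairs had correlations from -0.44 to 0.26, 3 of them over 0.1. With the replicate block RTN4 was at 0.22, RTN3 at 0.23 and RTN2 at -0.0061, and none of the 7 genes passed.

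RTN1 had too few counts to test, and a batch that the labels do not name could not be fitted.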
